A study of Mus musculus with 17 samples.

Results

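In the hippocampus of Control mice and mice lacking CBP in forebrain excitatory neurons, kindled or not, 10 genes that mark adult neurogenesis were compared. They were Mki67, Top2a, Cdk1, Eomes, Igfbpl1, Sox4, Sox11, Dcx, Dpysl3 and Sema3c. They were chosen by name, 10 of the 55471 genes in the table, with earlier results of these data known. Total RNA was sequenced in 17 libraries from C57BL/6 mice aged 3 to 6 months, 1 mouse each. In CBP-ifKO mice, labelled Crebbp_flox;Camk2a_creERT2, tamoxifen triggers recombination that leaves a truncated CBP in forebrain excitatory neurons, whereas the counts cover every cell of the hippocampus. The labels name Camk2a_creERT2 for Control mice too, while the methods describe them as littermates without it. Both genotypes received tamoxifen. Sal mice had saline and no kindling. PTZ0 mice were kindled by alternate-day injection of the GABA-A receptor blocker pentylenetetrazole (PTZ, 45 mg/kg), a convulsant, and their final injection was saline. In PTZ45 mice, kindled in the same way, the final injection was again 45 mg/kg PTZ. Kindled thus names an injection schedule and not the seizures a mouse had, which were not analysed here. Tissue was taken 45 min after the last injection. Each of the 6 groups had 3 libraries, except Control PTZ45 with 2.

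In the adult dentate gyrus, radial glia-like stem cells give rise to dividing intermediate progenitors, these to neuroblasts, and neuroblasts to new granule cells. Mki67, Top2a and Cdk1 are used by dividing cells of any type. Eomes (Tbr2) marks intermediate progenitors, Igfbpl1, Sox4, Sox11 and Dcx mark the step from progenitor to immature neuron, and Dpysl3 and Sema3c act in the outgrowth and guidance of axons. None of these genes is restricted to new neurons, since oligodendrocyte precursors also divide and also use several of them.

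Libraries held between 5831992 counts (CBP-ifKO Sal replicate 2) and 18735643 counts (CBP-ifKO Sal replicate 1). Crebbp, the targeted gene, was lower in all 9 CBP-ifKO libraries (1061 to 1337 normalized counts, which are counts divided by a DESeq2 size factor) than in all 8 Control libraries (1824 to 2429). Esr1, the estrogen receptor gene whose human counterpart forms part of creERT2, was at 703 to 941 in CBP-ifKO and 41.0 to 77.8 in Control, and Arsi, a neighbor of Camk2a, at 46.3 to 101 and 7.79 to 17.6. Markers of mature dentate granule cells were present in every library, with a summed level of 5299 to 6534 over 10 genes. The 8 genes of choroid plexus epithelium, the secretory tissue of the ventricles next to the hippocampus, varied from 2426 to 73596 in sum. They passed 10000 in 5 libraries, namely Control Sal replicate 2, CBP-ifKO Sal replicate 1, Control PTZ0 replicate 2, CBP-ifKO PTZ0 replicate 3 and CBP-ifKO PTZ45 replicate 2. The library names give lane 3 for Control Sal and Control PTZ0, lane 4 for Control PTZ45 and CBP-ifKO Sal, and lane 5 for both kindled CBP-ifKO groups. Genotype and lane therefore cannot be told apart within any treatment.

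The markers were expressed at low to moderate levels, which sets how much can be read from each. Compared per length as RPKM, which scales counts to exon length and to the library's total, Dpysl3 was highest with a level of 9.34 ± 1.59 (SD, n = 17), followed by Sema3c (5.15 ± 0.32), Sox4 (4.02 ± 0.31), Sox11 (3.49 ± 0.71) and Dcx (2.54 ± 0.27). Mki67 was at 0.81 ± 0.14, and Igfbpl1 (0.24 ± 0.09), Top2a (0.22 ± 0.06), Cdk1 (0.059 ± 0.036) and Eomes (0.059 ± 0.035) were near the bottom. Sox4 was above Sox11 in 13 of 17 libraries, Igfbpl1 above Top2a in 10 and Cdk1 above Eomes in 9, so these neighbors in the order overlapped. Every other neighbor in the order was lower in all 17 libraries. Behind these levels stood 13371 counts of Dpysl3 over all libraries, 6960 of Dcx and 1746 of Mki67, but only 422 of Top2a, 164 of Igfbpl1, 67 of Cdk1 and 52 of Eomes. Cdk1 had 0 counts in 2 libraries and at most 3 in 7. Eomes had at most 3 counts in 10 libraries. The scarcity of the division genes extended to some others of their kind, as 8 of 30 replication and cell cycle genes (Ccnb1, Bub1, Aurkb, Birc5, Ube2c, Rrm2, Pbk and Cdc20) averaged under 10 normalized counts. The rest averaged more, and some passed Mki67 (100), such as Smc2 (374) and Mcm6 (245).

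The 10 genes lie on 10 different chromosomes (GRCm38; GENCODE M21), so that no pair shares a locus. All 10 are protein coding. Mki67 is at chr7:135689784-135716361, Top2a at chr11:98992943-99024189, Cdk1 at chr10:69335146-69352938, Igfbpl1 at chr4:45809468-45826923, Sox4 at chr13:28948919-28953713, Sox11 at chr12:27334264-27342574 and Dcx at chrX:143855842-143933311, all on the minus strand. Eomes at chr9:118478212-118486132 and Sema3c at chr5:17574281-17730268 are on the plus strand. Sox4 and Sox11 have 1 exon each, and Sema3c has 18 merged exons. Sox4 shares 2616 of its 4795 exonic bases with Gm26735, a long noncoding RNA on the opposite strand. Eomes shares 118 exonic bases with the antisense gene Gm33460, and Top2a shares 122 with the small nucleolar RNA gene Gm23451. Whether counting used strand was not stated, so reads of such pairs cannot be told apart.

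The promoters of the dividing-cell genes show what these members have in common besides their use as markers, and that of Sox11, a SoxC transcription factor of immature neurons, is set beside them because it had the largest called change between genotypes. Genes that peak at G2 and mitosis typically carry CCAAT boxes, bound by NF-Y, and a cell cycle homology region, TTTGAA. The 250 bases before each start (RefSeq, GRCm38.p6) are given 5′ to 3′ on the gene's strand, with CCAAT and TTTGAA on either strand (ATTGG and TTCAAA on the other) in capitals. No CCAAT overlapped a TTTGAA. RefSeq and GENCODE differ in where some genes start, and the last 26 bases of the Cdk1 window, with 1 TTTGAA, lie inside the GENCODE gene.
Mki67, chr7:135716380-135716629, minus strand: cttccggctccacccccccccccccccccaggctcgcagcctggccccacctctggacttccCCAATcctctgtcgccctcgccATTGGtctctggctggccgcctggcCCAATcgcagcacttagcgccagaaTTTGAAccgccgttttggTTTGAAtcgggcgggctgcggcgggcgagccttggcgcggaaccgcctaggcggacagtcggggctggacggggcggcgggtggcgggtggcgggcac
Top2a, chr11:99024190-99024439, minus strand: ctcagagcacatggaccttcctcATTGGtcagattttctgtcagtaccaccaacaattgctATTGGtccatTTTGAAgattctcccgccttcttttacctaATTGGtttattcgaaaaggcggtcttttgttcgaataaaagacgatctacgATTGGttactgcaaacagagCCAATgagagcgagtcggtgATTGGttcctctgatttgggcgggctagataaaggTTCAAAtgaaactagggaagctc
Cdk1, chr10:69352913-69353162, minus strand: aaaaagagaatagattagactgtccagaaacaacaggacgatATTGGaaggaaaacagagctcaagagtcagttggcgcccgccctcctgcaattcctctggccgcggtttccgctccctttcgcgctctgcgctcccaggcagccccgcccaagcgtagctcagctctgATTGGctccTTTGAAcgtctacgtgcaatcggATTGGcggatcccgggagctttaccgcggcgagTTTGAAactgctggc
Sox11, chr12:27342719-27342968, minus strand: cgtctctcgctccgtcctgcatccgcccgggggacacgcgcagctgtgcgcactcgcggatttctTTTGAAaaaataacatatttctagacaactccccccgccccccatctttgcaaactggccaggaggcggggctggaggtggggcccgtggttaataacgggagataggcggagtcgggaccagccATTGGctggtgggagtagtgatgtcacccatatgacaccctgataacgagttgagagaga

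The windows of Mki67, Top2a and Cdk1 each held 2 copies of TTTGAA, and they held 3, 6 and 3 CCAAT boxes. Sox11 held 1 of each. Over 32851 promoter windows of the same length, 33.8% held a CCAAT and 15.99% a TTTGAA. Windows were found for 8 of the 10 members, all but Igfbpl1 and Dpysl3. That of Sema3c lay wholly inside the GENCODE gene, as did 14 bases of that of Sox4 and 92 of the first of Dcx. Sox4 held 4 CCAAT boxes, Eomes 2 and the first of the Dcx windows 1, and Sema3c held none. The letters TGACG, found in the cAMP response element that CREB binds, were in none of these windows on either strand, against 17.8% of all windows. These matches describe letters only.

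Genotype was the comparison in which the markers differed. All 10 members had a log2 fold change below 0 in CBP-ifKO against Control over all treatments (8 Control and 9 CBP-ifKO libraries), with a median of -0.25, against 0.01 over all genes tested. By the Wald test of DESeq2 with Benjamini-Hochberg adjustment, 4 of the 10 fell, namely Dpysl3, Sox11, Mki67 and Sema3c, and none rose. Of 18682 genes tested, 19.3% passed this threshold, with 11.5% of all tested lower and 7.76% higher. The 4 declines ran from 10.05% (Sema3c) to 30.7% (Sox11). With sequencing lane as a term, none of the 10 was called and Mki67 stood at 0.13, and without the libraries high in choroid plexus genes Dpysl3 and Sox11 were called. In bulk tissue, fewer cells of a type and less RNA per cell cannot be told apart.

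**Figure D1:**
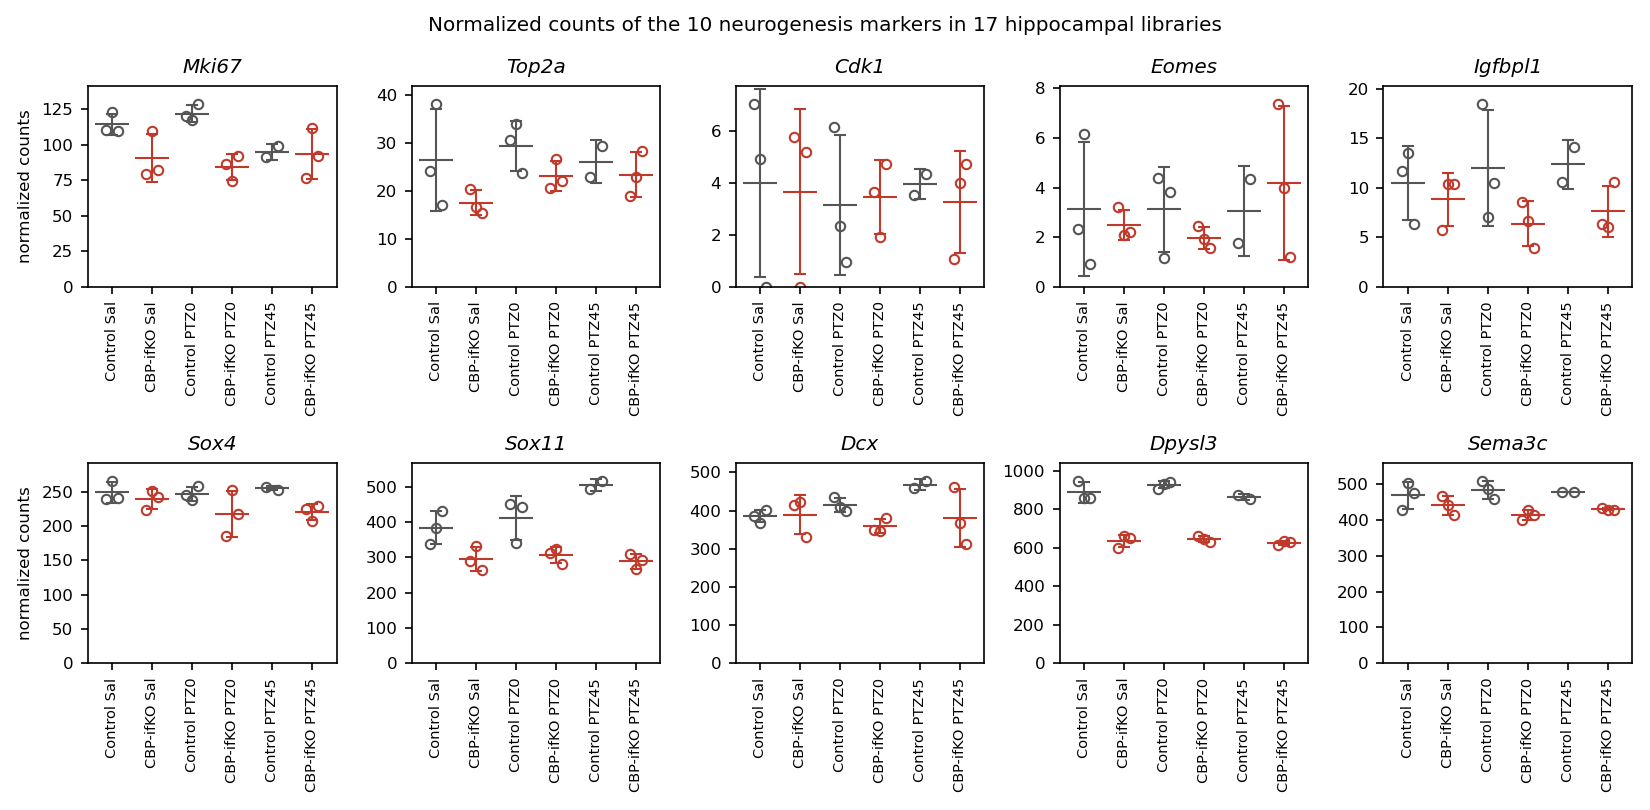
Normalized counts (vertical axis, from 0) of each marker in each library (circles) of the 6 groups, with group mean and SD (bars); Control is grey and CBP-ifKO red. Dpysl3 and Sox11 do not overlap between genotypes, and the remaining 8 do.

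Dpysl3, which encodes CRMP4, a protein of growth cones and axon extension, separated the genotypes most clearly. Its gene has 18 merged exons at chr18:43320984-43438286 on the minus strand. In Sal, Control libraries had 949, 857 and 858 normalized counts and CBP-ifKO libraries 600.2, 660 and 651. In PTZ0 the values were 909, 934 and 942 against 660, 647 and 632, and in PTZ45 877 and 853 against 613, 634 and 632. Every CBP-ifKO library was below every Control library, whatever the treatment. The means were 897 ± 41 (SD, n = 8) in Control and 637 ± 20 (n = 9) in CBP-ifKO, which is 29.1% lower (log2 fold change -0.50, SE 0.04, adjusted p = 4.74e-34). Each treatment taken alone gave a similar value, at -0.49 (SE 0.10, adjusted p = 2.27e-04) in Sal, -0.52 (SE 0.08, adjusted p = 2.76e-08) in PTZ0 and -0.46 (SE 0.11, adjusted p = 0.0021) in PTZ45. The last call was lost without Control PTZ45 replicate 1 (adjusted p = 0.227), without Control PTZ45 replicate 2 (adjusted p = 0.101) or without CBP-ifKO PTZ45 replicate 1 (adjusted p = 0.0524).

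Sox11, the transcription factor that acts with Sox4 upstream of Dcx, was the other member whose genotypes did not overlap. Genes whose genotypes did not overlap were 2.99% of those tested (2.16% lower and 0.83% higher in CBP-ifKO), and 2 of the 10 members were among the lower ones. Sox11 was at 337, 384 and 431 normalized counts in Control Sal against 290.2, 332 and 265 in CBP-ifKO Sal. In PTZ0 it was at 450.3, 341 and 444 against 313, 325 and 281. In Sal, 10.1% of all genes tested were lower without overlap, and 2 of the 10 members were, Sox11 and Dpysl3. The lowest Control library stood only a little above the highest CBP-ifKO library in these treatments, and the gap was wider in PTZ45, with 493.5 and 517 against 309, 267 and 291. Across treatments Sox11 was 30.7% lower (log2 fold change -0.53, SE 0.08, adjusted p = 1.78e-09), with means of 425 ± 66 in Control and 297 ± 24 in CBP-ifKO. Within treatments it was called in PTZ0 (-0.43, SE 0.13, adjusted p = 0.0169) and in PTZ45 (-0.80, SE 0.14, adjusted p = 3.41e-06), and in Sal it was -0.40 (SE 0.14, adjusted p = 0.138). The PTZ0 call was lost without Control PTZ0 replicate 1 (adjusted p = 0.286), without Control PTZ0 replicate 3 (adjusted p = 0.232) or without CBP-ifKO PTZ0 replicate 3 (adjusted p = 0.215). The difference of the kindling response between genotypes (PTZ0 and PTZ45 pooled) did not pass its test (interaction -0.20, SE 0.17, unadjusted p = 0.223).

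Mki67, the proliferation antigen Ki-67, had 111, 123 and 109 normalized counts in Control Sal and 79.4, 110.0 and 82.03 in CBP-ifKO Sal. In PTZ0 these were 120.3, 117 and 129 against 86.4, 74.5 and 92.3, with no overlap, as for 5 of the 10 members and 12.7% of all genes tested in that direction. In PTZ45 they were 91.1 and 98.9 against 76.8, 112 and 92.0, with the highest value in a CBP-ifKO library. Over all treatments Mki67 fell by 0.34 on the log2 scale (SE 0.10, adjusted p = 0.0096), from a mean of 112 ± 13 (SD, n = 8) to 89.5 ± 13.7 (n = 9). This call was lost with lane as a term, where the value turned to 0.13 (SE 0.33, adjusted p = 0.9997). The 95% interval there ran from -0.52 to 0.78 and so held -0.34 as well. It was also lost without the libraries high in choroid plexus genes (-0.36, adjusted p = 0.0511). Within single treatments no call was made by DESeq2, with log2 fold changes of -0.38 in Sal, -0.53 in PTZ0 (adjusted p = 0.0828) and -0.02 in PTZ45, while edgeR called the PTZ0 difference (adjusted p = 0.0430). Top2a, the topoisomerase of chromosome segregation, ranged from 17.2 to 38.2 in Control and 15.5 to 28.3 in CBP-ifKO, with a fold change of -0.35 on the log2 scale (SE 0.19) and an adjusted p of 0.200. Cdk1, the kinase that drives entry into mitosis, was at 3.66 ± 2.45 and 3.44 ± 2.0 normalized counts, and its 95% interval for the log2 fold change ran from -1.05 to 1.03.

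Eomes, the T-box factor of intermediate progenitors, had 1 to 7 counts per library, and the interval of its log2 fold change ran from -1.20 to 0.91. A difference of up to about 2-fold in Cdk1 or Eomes was thus not detectable at this depth, and DESeq2 gave neither an adjusted p. Igfbpl1, a secreted binding-protein-like gene of immature neurons, was at 6.33 to 18.4 normalized counts in Control and 3.94 to 10.6 in CBP-ifKO. Its log2 fold change of -0.65 was the lowest of the 10, with an SE of 0.31 and an adjusted p of 0.133. It was not called, and the value was -0.02 with lane as a term and -0.44 without the libraries high in choroid plexus genes, where Sox11 and Dpysl3 were lower.

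Sema3c, a secreted semaphorin that guides axons and migrating cells, differed least among the members called. It had 429, 502 and 476 normalized counts in Control Sal against 468, 442 and 415 in CBP-ifKO Sal. In PTZ0 it had 510.0, 486 and 459.9 against 400.6, 429.6 and 414, and in PTZ45 478.4 and 478.1 against 433, 429 and 428. The genotypes overlapped in Sal and not in either kindled treatment, where 12.7% (PTZ0) and 17.2% (PTZ45) of all genes tested were lower without overlap, and 5 of the 10 members in each. Sema3c fell by 0.15 on the log2 scale across treatments (SE 0.05, adjusted p = 0.0172), with means of 477 ± 25 and 429 ± 19. It was not called within any treatment, and without Control PTZ0 replicate 1 the adjusted p was 0.0569. With lane as a term the value of Sema3c was -0.0084 (SE 0.17, adjusted p = 0.9997), and without the libraries high in choroid plexus genes it was -0.16 (adjusted p = 0.117).

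Dcx, the microtubule-binding protein doublecortin and the usual marker of neuroblasts, was not called. Control libraries had 386, 368 and 400.5 normalized counts in Sal and CBP-ifKO libraries 415, 421 and 329.6. In PTZ0 they had 434.5, 409 and 398 against 349, 348 and 381, and in PTZ45 458 and 478 against 463, 367 and 311. The means in Sal were 385 ± 16 and 389 ± 51, and CBP-ifKO PTZ45 alone covered nearly the whole range of the gene. Across treatments Dcx had a value of -0.16 on the log2 scale (SE 0.07, adjusted p = 0.121), which passed without CBP-ifKO Sal replicate 1 (adjusted p = 0.0446), without CBP-ifKO PTZ45 replicate 1 (adjusted p = 0.0402) and after a correction for GC content (adjusted p = 0.0278). Sox4, the other SoxC factor, was at 238 to 266 normalized counts in Control and 185 to 252 in CBP-ifKO, a difference of -0.15 on the log2 scale (SE 0.07, adjusted p = 0.101). It passed without CBP-ifKO PTZ0 replicate 2 (adjusted p = 0.0379).

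**Figure D2:**
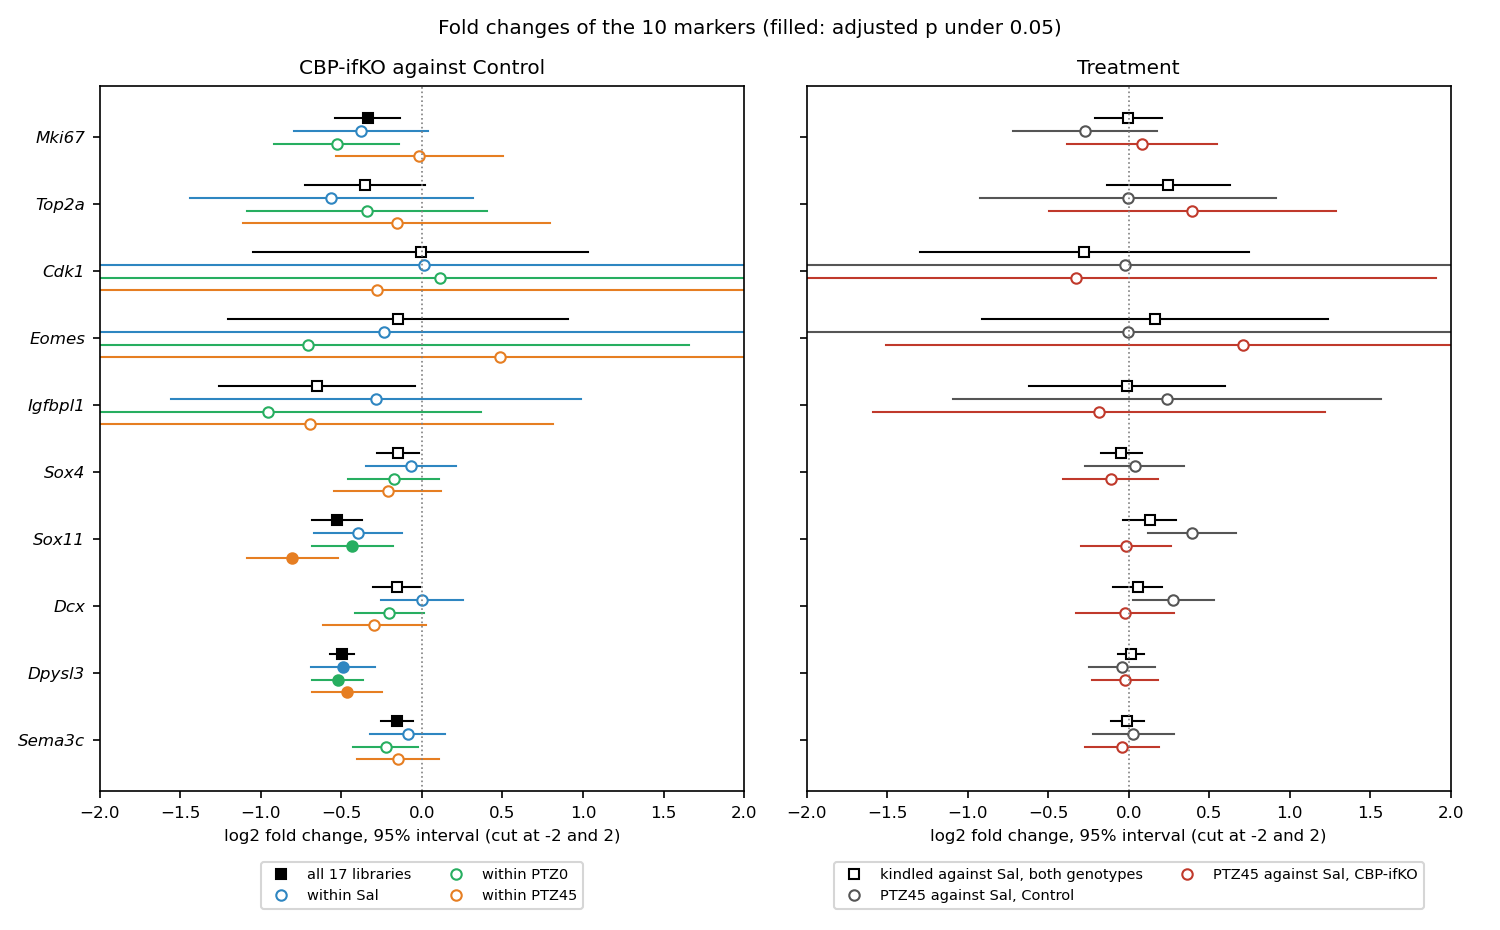
Log2 fold changes (horizontal axis) with 95% intervals for the 10 markers, for CBP-ifKO against Control (left) and for treatments (right); filled symbols have an adjusted p under 0.05. Dpysl3 is near -0.5 in each treatment, and no treatment value on the right is filled.

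Within single treatments the counts of members called as lower were 1 in Sal, 2 in PTZ0 and 2 in PTZ45, all of them Dpysl3 or Sox11, and none was called higher. DESeq2 gave an adjusted p to 6, 6 and 7 of the 10 members there, and the others, which had few counts, could not be called. Of the genes tested, 1.77%, 5.25% and 2.82% were called lower in these comparisons, and 0.267%, 1.43% and 0.25% higher (2.04%, 6.68% and 3.07% in either direction). Among the 6 members with an adjusted p in all 3 treatments, Dcx in Sal (-0.0011) and Mki67 in PTZ45 (-0.02) had values close to 0. For Sox11 in Sal the unadjusted p was 0.0047.

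Lane and markers of other cells moved with genotype to different degrees, and choroid plexus genes were high in some libraries of both genotypes. In lane 4, which held both genotypes but in different treatments, Dpysl3 was at 877 and 853 in Control PTZ45 and 600.2 to 660 in CBP-ifKO Sal, Sox11 at 493.5 and 517 against 265 to 332, and Sema3c at 478.1 and 478.4 against 415 to 468. Of the 10 members, 7 did not overlap and were lower in CBP-ifKO Sal (these 3, Top2a, Igfbpl1, Sox4 and Dcx), against 18.5% of all genes tested. Mki67 overlapped, with 91.1 and 98.9 against 79.4 to 110.0. Its 6 Control libraries of lane 3 (109 to 129), Sal and PTZ0, were all above its 2 of lane 4, which are the Control PTZ45 libraries. Lane and last injection cannot be told apart there, and the share of all genes with such a gap was not computed. With lane added to the fit, which assumes an equal genotype effect in all treatments, no member was called (background 0.799% of 16404 genes, 3 higher and 128 lower), 2 members had an unadjusted p under 0.05, and the log2 fold changes were -0.43 (SE 0.13, adjusted p = 0.115) for Dpysl3 and -0.77 (SE 0.23, adjusted p = 0.0714) for Sox11, with Sema3c at -0.0084. Dpysl3 and Sox11 had unadjusted p values of 0.0013 and 6.71e-04 there. That fit estimates as many quantities as there are groups. Its genotype value is in effect the Sal and PTZ45 differences added, less the PTZ0 difference. Its SEs were larger than without lane (for Mki67 0.33 against 0.10), so a lost call cannot separate lane from genotype.

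Without the 5 libraries high in choroid plexus genes, Dpysl3 (-0.48, adjusted p = 3.48e-16) and Sox11 (-0.55, adjusted p = 2.56e-08) were again called (background 11.8%). Mki67 and Sema3c were not, at fold changes close to those with all 17 libraries. Of the choroid plexus genes, 8 of 8 had a value above 0 between genotypes with all 17 libraries (median 1.59), and none was called by edgeR. DESeq2 gave an adjusted p there to 1 of the 8 and could not have called the others, and 0 had an unadjusted p under 0.05. Without the 5 libraries the direction turned, with 6 of the 8 below 0 (median -0.41), 1 called higher and 2 lower.

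**Figure D3:**
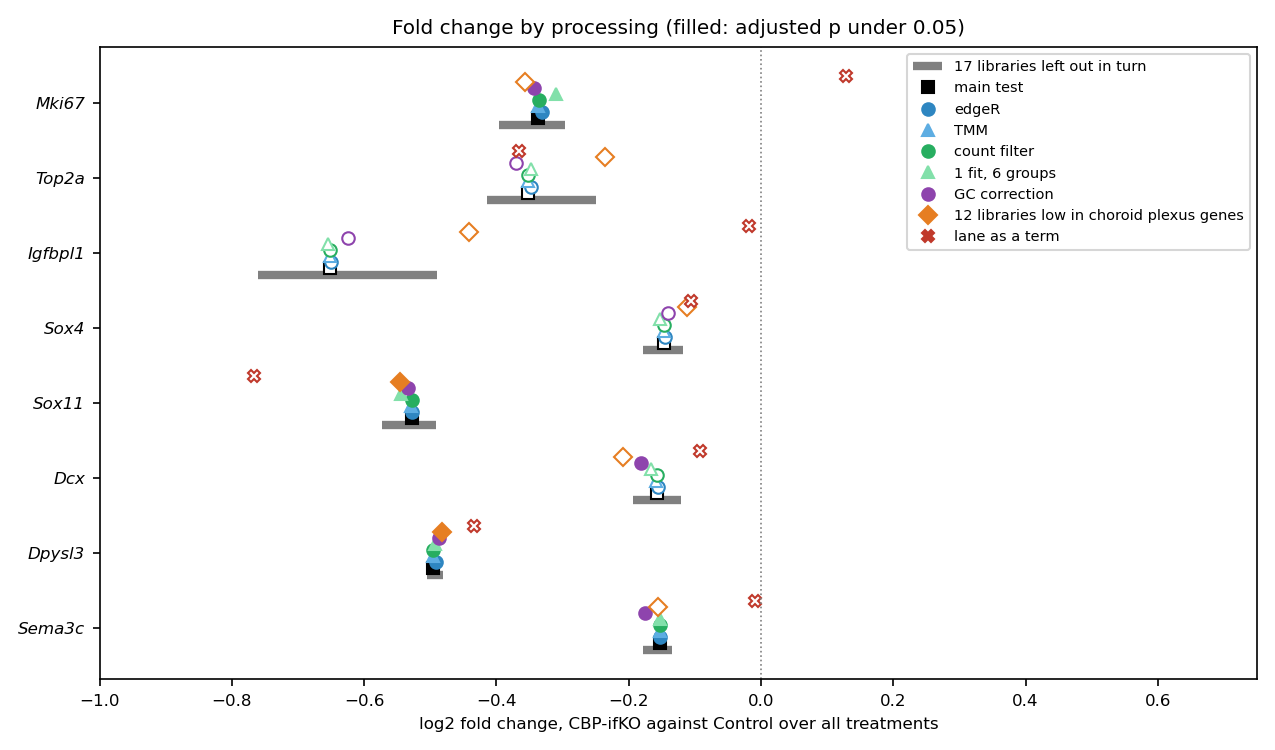
Log2 fold change of CBP-ifKO against Control over all treatments (horizontal axis) for 8 markers under each way of processing; grey bars span the 17 fits that leave out 1 library each, and filled symbols have an adjusted p under 0.05. Adding lane as a term moves Mki67 to 0.13 and leaves none of its symbols filled, while Dpysl3 and Sox11 stay below -0.4.

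Oligodendrocyte precursors, the other main population of dividing cells in the adult hippocampus, had lower marker levels in CBP-ifKO as well. All 10 genes of the list were below 0 (median -0.27) and 8 were called lower, against 11.5% lower over all genes. With lane as a term none of the 10 was called (median -0.27, 9 below 0), and without the libraries high in choroid plexus genes 4 were called lower. Pdgfra, the receptor that defines these cells, was at 1003 ± 42 (SD, n = 8) normalized counts in Control and 815 ± 76 (n = 9) in CBP-ifKO (log2 fold change -0.30, SE 0.05). The proteoglycans Vcan (-0.22, SE 0.05) and Cspg4 (-0.31, SE 0.08) and the sialidase Neu4 (-0.46, SE 0.11) fell too. In sum the list was at 3301 to 3488 in Control and 2630 to 2959 in CBP-ifKO, without overlap, and among Control groups Sal had 3402 to 3488, PTZ0 3301 to 3384 and PTZ45 3321 to 3339. Among CBP-ifKO groups Sal had 2781 to 2952, PTZ0 2630 to 2959 and PTZ45 2736 to 2778. No gene of the list averaged under 10 normalized counts. The part of these cells in the values of Mki67, Sox11, Dpysl3 or Sema3c was not tested.

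**Figure D4:**
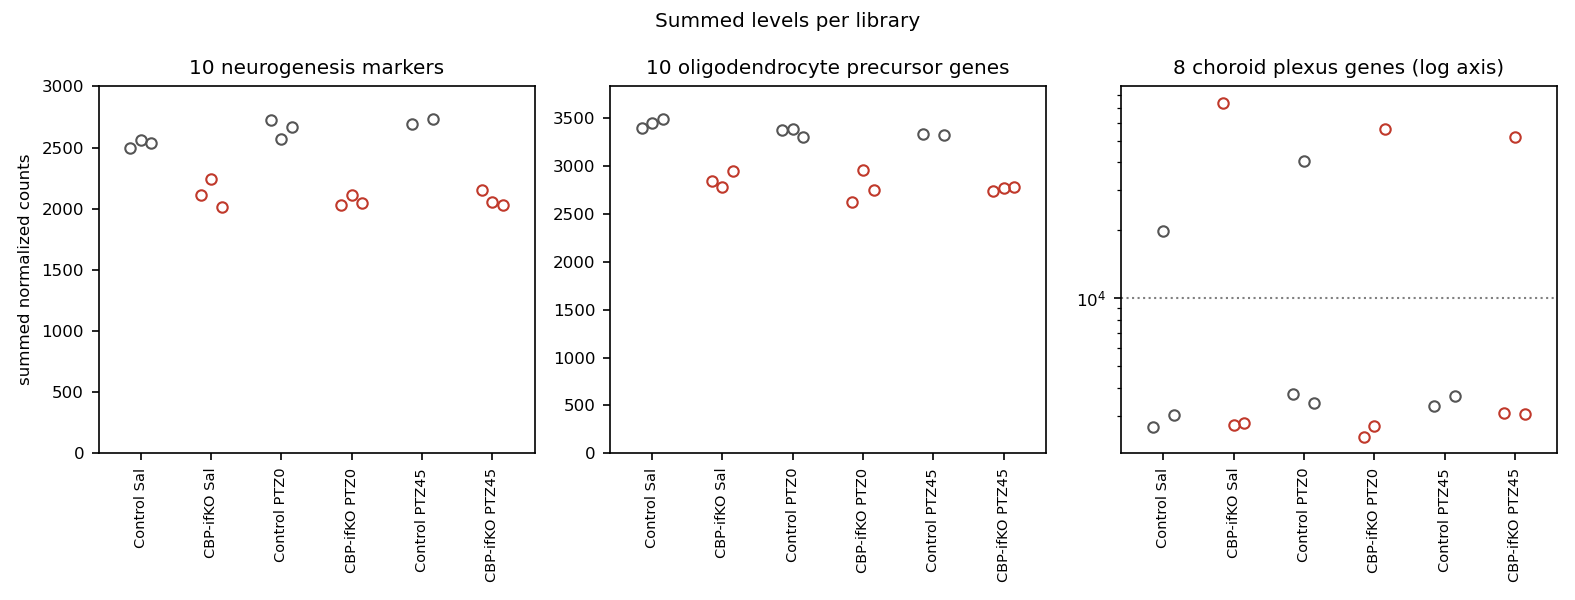
Summed normalized counts per library (circles; Control grey, CBP-ifKO red) of the 10 neurogenesis markers, the 10 oligodendrocyte precursor genes and the 8 choroid plexus genes (log axis, dotted line at 10000). The first and second sums separate the genotypes, and 5 libraries lie above the dotted line. The first sum averages 2624 in Control and 2089 in CBP-ifKO. Of its genes, only Dpysl3 (897 and 637) and Sox11 (425 and 297) separate the genotypes alone. How often sums of other genes separate them was not tested.

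Other genes of the neurogenic lineage did not all follow the members. Of 20 neuroblast and immature neuron genes, 7 were called lower and 3 higher, with a median of -0.23 (over all genes, 11.5% lower and 7.76% higher). With lane as a term the median of this list was -0.26, with 16 of 20 below 0, and no gene of it was called. Nor was any of the stem cell, replication, oligodendrocyte precursor, astrocyte, interneuron or Cajal-Retzius lists described here, and among mature granule cell genes C1ql2 alone was. The 7 called lower without the lane term included the microtubule regulator Stmn2 (-0.29, SE 0.03), the tubulin Tubb2b (-0.42, SE 0.06), calretinin (Calb2, -0.68, SE 0.10) and the polysialyltransferase St8sia4 (-0.28, SE 0.05). Calb2 was at 307 ± 37 normalized counts in Control and 192 ± 31 in CBP-ifKO, and interneurons and mossy cells also express it. The 3 called higher, named after their values were seen, were the transcription factors Neurod2 (0.29, SE 0.07) and Prox1 (0.26, SE 0.06), both also used by mature neurons, and Marcksl1 (0.25, SE 0.07).

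Of 12 stem cell and progenitor genes, 11 were below 0 and 1, the fatty-acid-binding protein Fabp7 (-0.30, SE 0.11), was called lower, a share under the 11.5% over all genes. Of 30 replication and cell cycle genes, 18 were above 0 (median 0.12). The 4 called (19.3% were called over all genes) were split, with the replicative helicase subunit Mcm6 (0.25, SE 0.07) and cyclin Ccne2 (0.29, SE 0.08) higher and the condensin subunit Smc2 (-0.20, SE 0.06) and the helicase subunit Mcm4 (-0.20, SE 0.07) lower. Without the libraries high in choroid plexus genes Mcm6 alone was called, and Ccne2 (adjusted p = 0.0687), Smc2 (adjusted p = 0.0731) and Mcm4 (adjusted p = 0.115) were not. Of 8 subventricular zone and olfactory neuroblast genes, none was called by DESeq2 or edgeR and none had an unadjusted p under 0.05 in DESeq2.

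Mature dentate granule cell genes changed in both directions, with 5 called lower and 3 higher of 10 (over all genes, 11.5% lower and 7.76% higher). With lane as a term 1 was called, C1ql2 (-1.51, SE 0.32, adjusted p = 5.99e-04). The synaptic organizer C1ql2 fell from 294 ± 41 to 93.6 ± 19.9 normalized counts (-1.66, SE 0.10) and Tdo2, a tryptophan-catabolizing enzyme, from 109 ± 17 to 54.8 ± 13.3 (-0.96, SE 0.13). Lct (0.75, SE 0.09) and Npnt (0.59, SE 0.08) rose. Ntng1, Pdzd2 and Plk5 were the further genes called lower and Rasl10a the third called higher, named after their values were seen.

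Among astrocyte genes 4 of 8 were called lower (11.5% over all genes), and 2 of 8 without the libraries high in choroid plexus genes, with the glutamate transporter Slc1a3 at -0.18 (SE 0.03), Aldoc and S100b at -0.24 each (SE 0.06) and the connexin Gja1 at -0.11 (SE 0.04). Summed astrocyte levels were 65268 to 73708 in Control and 61799 to 69794 in CBP-ifKO. Among interneuron genes Gad1 (-0.14, SE 0.03), Sst (-0.28, SE 0.06) and Adarb2 (-0.10, SE 0.04) were called lower of 8, and their sum was at 7872 to 8404 and 7085 to 7875. Reln (-0.12, SE 0.04) was called lower among 8 Cajal-Retzius cell genes, a share near the 11.5% over all genes. Without the libraries high in choroid plexus genes neither Reln (adjusted p = 0.105) nor Adarb2 (adjusted p = 0.292) was called. None of 8 microglia genes was called by DESeq2 or edgeR, all 8 being below 0 (0 at an unadjusted p under 0.05 by DESeq2). The part of these cell types in the members' values was not tested.

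**Figure D5:**
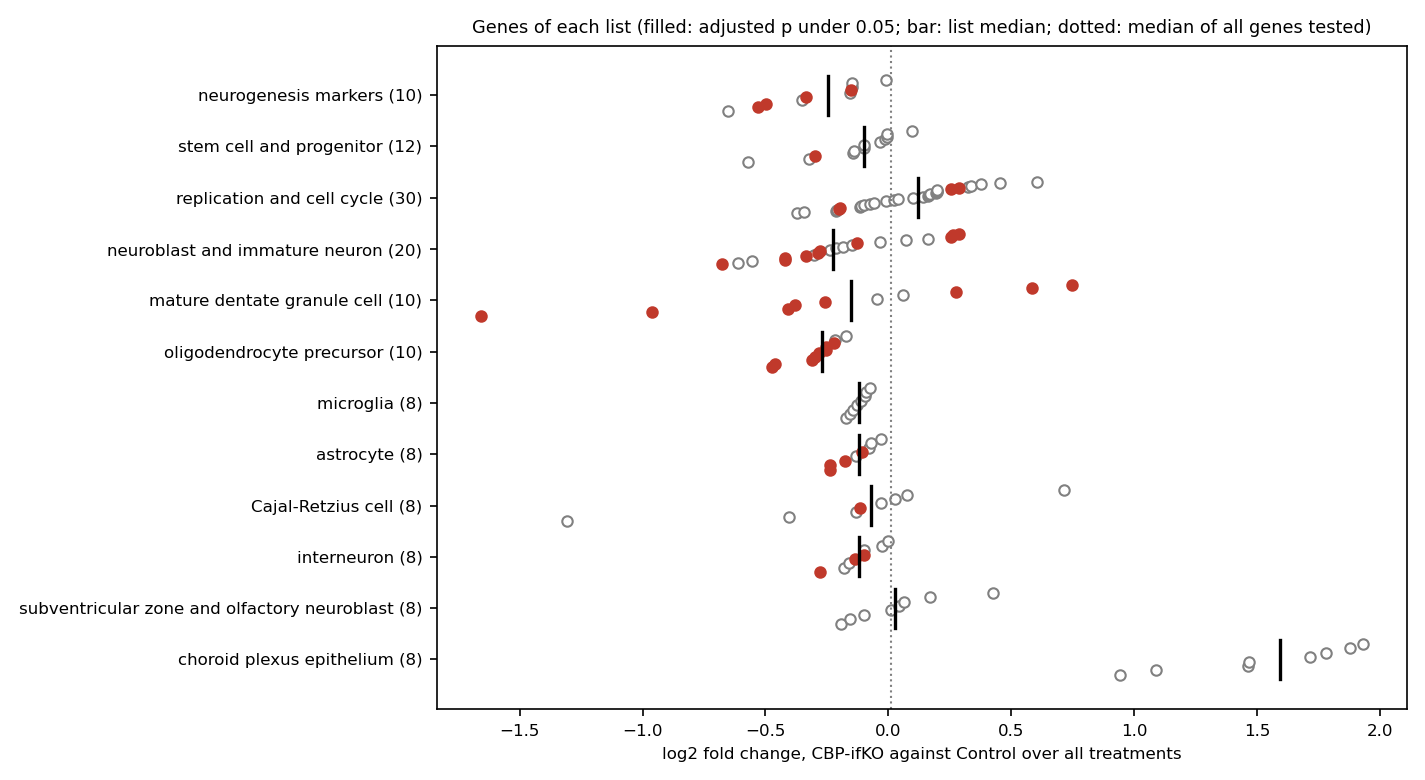
Log2 fold change of CBP-ifKO against Control over all treatments (horizontal axis) for each gene (circle) of each list, with the list median (bar) and the median over all genes tested (dotted line); filled circles have an adjusted p under 0.05. All 10 markers and all 10 oligodendrocyte precursor genes lie below 0, as do all 8 astrocyte and all 8 microglia genes. Replication and cell cycle genes lie on both sides.

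No marker was called for kindling. Over both genotypes, 11 kindled libraries were set against 6 Sal libraries, and neither DESeq2 nor edgeR called a member. The log2 fold changes ran from -0.28 (Cdk1) to 0.24 (Top2a) with a median of 0.01, and no member had an unadjusted p under 0.05. Of 39260 genes tested, none was called (0%), with 1595 at an unadjusted p under 0.05, and edgeR likewise called none of 19196. This background depended on the fit. When all 6 groups were fitted at once, with PTZ0 and PTZ45 kept as separate groups, DESeq2 called 76 genes higher and 64 lower of 14884, and no member. The 95% intervals were -0.07 to 0.10 for Dpysl3, -0.11 to 0.09 for Sema3c, -0.10 to 0.21 for Dcx, -0.03 to 0.29 for Sox11, -0.17 to 0.08 for Sox4 and -0.21 to 0.21 for Mki67. They were wider for Top2a (-0.14 to 0.63), Igfbpl1 (-0.62 to 0.60), Cdk1 (-1.30 to 0.74) and Eomes (-0.91 to 1.24).

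Single treatment comparisons likewise called none of the 10 members by DESeq2 or by edgeR. PTZ0 against Sal in Control, both in lane 3, had members from -0.32 to 0.22 (background 0.00843% called), and PTZ45 against PTZ0 in CBP-ifKO, both in lane 5, from -0.09 to 1.11 (background 0.0872%), with no member at an unadjusted p under 0.05 in either. The highest of these was Eomes, at 2.43, 1.91 and 1.58 in PTZ0 against 7.36, 4.0 and 1.18 normalized counts in PTZ45. In PTZ45 against Sal in Control (background 1.17%), which also differ in lane, 2 members had an unadjusted p under 0.05. Sox11 went from 337, 384 and 431 to 493.5 and 517 (log2 fold change 0.39, SE 0.14, unadjusted p = 0.0046, adjusted p = 0.215) and Dcx from 386, 368 and 400.5 to 458 and 478 (0.28, SE 0.13, unadjusted p = 0.0313, adjusted p = 0.560). In both genes the 2 PTZ45 libraries were above all 3 Sal libraries, as they were in 16.3% of all genes tested. The same comparison in CBP-ifKO (background 0.294%) gave -0.02 for Sox11 (SE 0.14) and -0.03 for Dcx (SE 0.16). PTZ45 against PTZ0 in Control (background 1.25%) had 1 member at an unadjusted p under 0.05, Sox11 (0.29, SE 0.13), and PTZ0 against Sal in CBP-ifKO (background 0.0112%) had none.

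Whether kindling acted differently in the genotypes was tested as an interaction over all 17 libraries. DESeq2 called no member and none of 39260 genes (0%, with 308 genes and no member at an unadjusted p under 0.05), and edgeR called none of 19816. With all 6 groups fitted at once, DESeq2 called 27 genes lower and 0 higher of 17925, and no member. Interaction values were lowest for Igfbpl1 (-0.54, SE 0.65), Dcx (-0.24, SE 0.15) and Sox11 (-0.20, SE 0.17) and highest for Top2a (0.27, SE 0.41). For Dpysl3 the value was -0.01 (95% interval -0.19 to 0.16).

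The genes whose variation between libraries was most like that of the members were sought over 17 libraries and after removal of group means. The search covered 13035 genes averaging 50 normalized counts or more, with the members themselves left out. For Dcx these were Sypl (Pearson r = 0.96), Tent2 (0.92), Gm37106 (0.88), Ireb2 (0.88) and Gm19744 (0.88). For the summed Mki67, Top2a and Cdk1 they were Acad11 (0.84), Ap4m1 (0.83), Cib1 (0.82), Arhgef40 (0.81) and Stx2 (0.81). No other listed neurogenesis or cell cycle gene was among them. Listed genes under the cut, such as Ccna2 (a mean of 32.2 normalized counts) and Kif11 (37.5), were not searched, so their absence was fixed in advance. Listed genes above it, such as Smc2 (374) and Mcm6 (245), were searched. These correlations describe 17 libraries that share depth and batches, and are given without a test.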

How the data were processed

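RNA was measured in 17 hippocampal libraries, 1 per mouse. The authors deposited whole-number counts per gene that were not normalized. Their notes name Trim Galore 0.6.4, STAR 2.6.1 and GRCm38. Per their methods, single-end reads of 50 bases with a mapping quality above 10 were counted on Ensembl exons with Rsubread. Whether strand was used is not given in the sources used here. Of 18 columns, 1 matched no sample and was not used. Of gene identifiers, 99.4% matched a GENCODE M21 symbol. No pair of libraries in a group agreed within sampling noise.

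Counts were tested with the Wald test of DESeq2 1.42.0 (R 4.3.3), two-sided, with Benjamini-Hochberg adjustment over all genes and independent filtering; a gene was called at an adjusted p under 0.05. Pairs of groups were fitted alone. Genotype was fitted on 17 libraries with treatment as a term, and kindling (PTZ0 and PTZ45 together) with genotype. Intervals are 95% Wald intervals. Group differences beyond the spread between mice are what these tests measure. RPKM values were computed here from the deposited counts and lengths. Totals of 5831992 to 18735643 counts set the precision, and under 10 counts per library leave fold changes of Cdk1 and Eomes open to more than 2-fold error. The scripts were tested on simulated data.

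Alternatives were edgeR 4.0.16 (quasi-likelihood), TMM scaling, a filter of 10 counts in 2 libraries, 1 fit of all groups, the replicate number as a block, each library left out, removal of each library's trend over GC content (loess, span 0.5), lane as a term and, chosen after seeing the data, leaving out the 5 libraries with over 10000 choroid plexus counts. Members and gene lists were chosen with earlier results of these data known. The text names the 10 members, Crebbp, Esr1 and Arsi, up to 4 called genes per list by smallest adjusted p, and the 5 genes most like Dcx and like the summed division genes (log2 of normalized counts plus 1); exceptions are marked.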

Additional observations from a re-analysis of the deposited data

Results flagged for a closer look

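Each member and each other list's summed level was screened for a library far from the rest within the 8 Control and within the 9 CBP-ifKO libraries, 42 groups in all, each of which mixes treatments. Chance alone marks about 5% of such groups, and 3 were marked. Eomes was at 7.36 normalized counts in CBP-ifKO PTZ45 replicate 1, the highest of the 9 and apart from the others. The summed Cajal-Retzius cell genes were at 2309 in CBP-ifKO Sal replicate 3, below the other 8. The summed choroid plexus genes were at 40355 in Control PTZ0 replicate 2, above the other 7 Control libraries.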

How the results depend on the processing

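The 4 calls between genotypes over all treatments were also 4 with edgeR, TMM, the count filter, 1 fit of all groups and the replicate block, 5 with the GC correction (Dcx added) and 3 to 5 with 1 library left out. They fell to 0 with lane as a term and to 2 without the choroid plexus libraries; the cause was not tested. In Sal, 1 fit of all groups called 2 members. Leaving out 1 library gave 1 to 2 calls in PTZ0 and 1 to 2 in PTZ45. Same-numbered libraries did not deviate together (median correlation -0.06, range -0.52 to 0.53) more than others did (0.03, -0.51 to 0.72). With so few libraries per group, this cannot exclude that the numbers pair mice. As a block the numbers gave 1 call in PTZ0 and 0 in PTZ45, where 1 degree of freedom was left, and changed no other count of members called. Fold changes that turned sign were all uncalled except Mki67 between genotypes, 0.13 with lane as a term. With lane Eomes was at 1.01, and with the block Cdk1 at 0.086. For kindling, Igfbpl1 was at 0.0028 with edgeR, 0.030 with the GC correction and 0.14 without the choroid plexus libraries, where Dpysl3 was at -0.025, Sema3c at 0.047 and the interactions of Mki67 and Eomes at -0.17 and -0.53. With 1 library left out, genotype values ranged from -0.22 to 0.21 for Cdk1 and -0.38 to 0.084 for Eomes. Kindling values ranged from -0.041 to 0.042 for Mki67, -0.17 to 0.13 for Igfbpl1, -0.059 to 0.50 for Eomes, -0.0041 to 0.037 for Dpysl3 and -0.045 to 0.026 for Sema3c. Interactions ranged from -0.020 to 0.18 for Mki67, -0.044 to 0.50 for Top2a, -0.97 to 0.44 for Cdk1, -0.68 to 0.61 for Eomes and -0.068 to 0.012 for Dpysl3. Normalized counts moved by less than 1 SD under TMM in all 60 group means. Counts limit Cdk1, Eomes and Igfbpl1 throughout, and 2 Control PTZ45 libraries limit every comparison with that group.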

Other observations

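Among the 45 pairs of members, correlations over 17 libraries with group means removed ran from -0.80 to 0.54. Dpysl3 and Sema3c, singled out after their values were seen, moved in opposite directions (Pearson r = -0.80), and Top2a and Cdk1 had the highest value (0.54). Both are descriptions of libraries that share depth and batches.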
